A study of Mus musculus with 62 samples.

Results

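The comparison set muscle of mice injected with non-cachectic melanoma cells (NCAC) against muscle of mock-injected mice (Con), with the weeks after injection pooled. It used 40 of the series' 62 RNA libraries: 20 NCAC and 20 mock libraries, 5 of each at 2, 4, 6 and 8 weeks. The other 22 libraries, from mice with cachectic melanoma cells (CAC), took no part in the fit, and their values stand beside the others without a test. Each library came from the tibialis anterior, a fast muscle of the lower leg, of female mice given as 2 months old. Labels differ on the strain: the sample labels name C57BL6/J, the series' design names NCI Ath/nude mice. Neither names the melanoma cell lines. The labels' protocols call the replicates biological without saying that each is 1 mouse.

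Cachexia is the loss of muscle and fat that accompanies some tumours and is not reversed by feeding. In cachectic muscle, cytokines such as interleukin-6 act through JAK kinases and STAT3, and glucocorticoids act through their nuclear receptor. Both routes are known to raise the ubiquitin ligases Trim63 (MuRF1) and Fbxo32 (atrogin-1), which mark muscle proteins for the proteasome. A tumour that does not cause cachexia is the control for the tumour itself, so the comparison asks how much of the muscle transcriptome differs when cancer cells are present and wasting is not.

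No gene differed between NCAC and mock muscle at the threshold used. Of 10848 genes that averaged 1 TPM or more over the 40 libraries, TPM being a share of a library's transcripts corrected for transcript length, 0 (0%) passed an adjusted p of 0.05 in limma with week as a block. At an unadjusted p under 0.05 stood 285 genes (2.63%), 43 of them higher and 242 lower in NCAC muscle. That split depended on the scaling: it was 270 higher and 350 lower on TPM rescaled by size factors, and 729 higher and 414 lower with libraries weighted by quality. The smallest p was 0.000119, against the 4.61e-06 that the first-ranked gene would have needed. Differences are given as log2 changes of TPM + 1, NCAC minus mock, a scale that understates the change of genes with low levels. The median over all genes was -0.0049, and the median standard error (SE) 0.0627. For 98.2% of genes the 95% interval of the difference lay inside a 1.5-fold change in either direction. The interval of the other 195 genes reached beyond it, so for these a difference of that size was not shown to be absent. In all, 55 genes had a change of more than 0.5 in size, 16 higher and 39 lower in NCAC muscle.

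Socs3, Stat3, Jak3 and Trim72 had close to the same levels in NCAC and mock muscle. Socs3, the feedback inhibitor that STAT3 induces, had a lowest, median and highest level of 0.905, 1.71 and 2.76 TPM in the 20 NCAC libraries, against 0.923, 1.75 and 3.10 TPM in the 20 mock libraries. The ranges overlapped almost in full, and the log2 change was 0.02 with a 95% interval of -0.16 to 0.19. In the 22 CAC libraries Socs3 ran from 1.48 over a median of 32.5 to 80.8 TPM, and 21 of them stood above the highest NCAC library. Stat3, the transcription factor itself, had 7.13, 10.7 and 14.1 TPM in NCAC muscle, against 7.33, 10.5 and 14.2 TPM in mock muscle. Its log2 change was -0.01 (interval -0.14 to 0.12), and 21 of 22 CAC libraries stood above the highest NCAC library. Jak3, a kinase of cytokine receptors with the common gamma chain, had 1.49, 2.91 and 3.96 TPM in NCAC muscle, against 2.21, 3.38 and 4.29 TPM in mock muscle. The change of Jak3 was -0.10 (interval -0.25 to 0.06), and all 22 CAC libraries lay above both groups, from 5.12 TPM. Trim72, the membrane repair protein also called MG53, had 72.2, 111 and 139 TPM in NCAC muscle, against 71.0, 107 and 162 TPM in mock muscle. Its change was 0.04 (interval -0.10 to 0.18), and its CAC levels began at 146 TPM. Of 29 tested genes of interleukin-6 signalling and the acute phase, 0 were called, and 20 intervals stayed inside 1.5-fold. At an unadjusted p under 0.05 stood Myc, a growth-promoting transcription factor, higher in NCAC muscle (change 0.18), and the liver genes Fga, Fgb and Fgg, lower.

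Of the genes of protein breakdown and growth control, Trim63 had 73.0, 133 and 181 TPM in NCAC muscle, against 91.1, 127 and 198 TPM in mock muscle, a log2 change of -0.03 (interval -0.23 to 0.16). Its CAC libraries reached 4657 TPM. Fbxo32 had 34.1, 74.6 and 120 TPM in NCAC muscle, against 34.3, 72.7 and 126 TPM in mock muscle, a change of -0.13 (interval -0.42 to 0.17). The ranges of both ligases overlapped in NCAC and mock muscle. Mstn, which encodes the growth inhibitor myostatin, had 7.27, 19.9 and 34.6 TPM in NCAC muscle, against 10.8, 17.8 and 33.6 TPM in mock muscle. The sign of the small changes of Stat3 and Mstn turned when TPM was rescaled by size factors, and that of Trim63, Fbxo32, Stat3 and Mstn turned when libraries were weighted by their quality. Fst, the secreted antagonist of myostatin and activin, had 0.342, 1.37 and 2.35 TPM in NCAC muscle, against 0.876, 1.402 and 3.04 TPM in mock muscle. For none of these 4 genes did the interval reach a doubling or halving of TPM + 1. Over the list of 27 atrophy and proteolysis genes, all tested, 0 were called, the median change was 0.02, and 27 intervals stayed inside 1.5-fold.

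**Figure D1:**
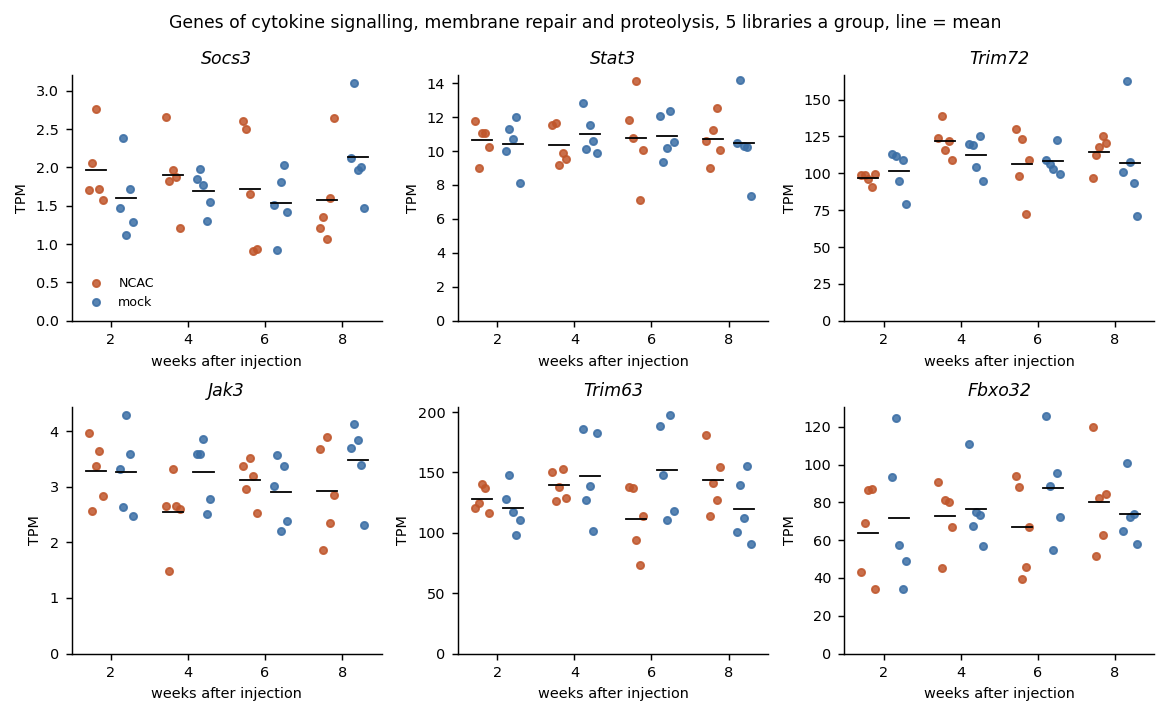
Level in TPM (vertical axes, from 0) of Socs3, Stat3, Trim72, Jak3, Trim63 and Fbxo32 in each library by weeks after injection, with NCAC libraries left of mock libraries and the mean of 5 libraries as a line. The NCAC and mock ranges of each gene overlap at every week. Socs3 stays at or under 3.10 TPM in all 40 libraries.

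Stress and metabolic genes did not separate the groups over the pooled weeks, and Mt2, Fkbp5, Pdk4 and Cdkn1a spread widely within each group. Mt2, a zinc-binding metallothionein, had 2.89, 6.87 and 45.7 TPM in NCAC muscle, against 2.24, 7.42 and 41.7 TPM in mock muscle, and its median in CAC muscle was 898 TPM. Its interval ran from -0.52 to 0.58, wider than that of most genes. Fkbp5, a glucocorticoid target, had 4.22, 7.73 and 33.7 TPM in NCAC muscle, against 3.71, 8.55 and 32.7 TPM in mock muscle. Pdk4, the kinase that holds back pyruvate oxidation during fasting, had 140, 378 and 872 TPM in NCAC muscle, against 57.4, 280 and 703 TPM in mock muscle. Its change of 0.32 had an interval of -0.07 to 0.70 and an unadjusted p of 0.106. By week the change of Pdk4 was 0.41, 0.04, -0.05 and 0.87 at 2, 4, 6 and 8 weeks. At 8 weeks its ranges barely overlapped, at 355 to 872 TPM in NCAC muscle, against 234 to 357 TPM in mock muscle. Cdkn1a, which encodes the cell-cycle inhibitor p21, had 6.57, 9.67 and 60.0 TPM in NCAC muscle, against 3.77, 12.0 and 30.5 TPM in mock muscle. Ppargc1a, the coactivator of mitochondrial genes, had 7.54, 14.2 and 22.4 TPM in NCAC muscle, against 9.81, 12.8 and 20.1 TPM in mock muscle. The 2 groups overlapped for each of these genes.

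Muscle fibre genes showed no shift between fibre types that passed the test. Myh4, the myosin heavy chain of the fastest fibres, had a median of 8952 TPM in NCAC muscle and 7810 TPM in mock muscle, with a change of 0.13 (interval -0.17 to 0.43). Myh2, the myosin of fast oxidative fibres, had medians of 470 TPM in NCAC muscle and 450 TPM in mock muscle, but means of 519 TPM in NCAC muscle and 629 TPM in mock muscle. Its change was -0.22 (interval -0.61 to 0.17), and 14 of 20 NCAC libraries lay below the mock mean of their week. Myh7, the myosin of slow fibres, was below the 1 TPM filter and untested, with 0.151, 0.367 and 1.94 TPM in NCAC muscle, against 0.0404, 0.718 and 5.19 TPM in mock muscle. The mean of Myh7 was 0.541 TPM in NCAC muscle and 1.31 TPM in mock muscle. For this gene 19 of 20 NCAC libraries lay below the mock mean of their week. Of the 22 fast-fibre genes, 0 were called, 20 had a positive change and the median was 0.05. Of 15 tested slow-fibre genes, 0 were called, 10 had a negative change and the median was -0.06. Their changes ran from -0.47 to 0.46, 5 were positive, and 8 of the 15 intervals stayed inside 1.5-fold. Slow-fibre members at an unadjusted p under 0.05 were Atp2a2, Tnni1 and Myl2, all 3 lower in NCAC muscle. Myl2, the regulatory light chain of slow fibres, had 0.649, 2.16 and 9.72 TPM in NCAC muscle, against 0.721, 3.35 and 10.01 TPM in mock muscle. Atp2a2, the calcium pump of slow fibres, had 4.57, 9.55 and 12.5 TPM in NCAC muscle, against 8.16, 10.4 and 15.3 TPM in mock muscle (change -0.19, unadjusted p 0.00713). The ranges of both genes overlapped.

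The same reading was made over 34 pathway lists, which with 16 cell type lists held 1137 genes, 943 of them tested. Of those 943 genes, 0 were called and 40 stood at an unadjusted p under 0.05, against 285 of all 10848 genes (2.63%). Hepatocyte genes made up 15 of the 40, all lower in NCAC muscle. Most of the tested hepatocyte genes had passed the filter only through mock libraries where they were high. Pathway medians ran from -0.11 for complement to 0.09 for glucocorticoid-responsive genes, against -0.0049 for all genes. Among all 10848 genes, 4977 had a positive change and 5871 a negative one. Of 67 cytosolic ribosomal protein genes, 61 had a positive change, with a median of 0.04. Of 42 genes of fatty acid uptake and oxidation, 34 had a positive change (median 0.03). They included Plin5, which coats lipid droplets beside mitochondria, at 13.4, 24.97 and 41.1 TPM in NCAC muscle, against 10.1, 20.2 and 34.7 TPM in mock muscle. The 71 nuclear-encoded genes of oxidative phosphorylation had a median of 0.01, and all 71 intervals stayed inside 1.5-fold. So did all 31 of the proteasome, all 33 of autophagy and lysosome, and all 32 of heat shock and chaperones. Of 33 tested interferon-stimulated genes, 28 had a negative change (median -0.08), and of 17 tested genes of MHC and antigen presentation, 14 had a negative change (median -0.10).

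Of the 49 lists with a tested gene, 21 kept the sign of their median when any 1 library or any 1 week was left out, and 28 did not. Fast fibre, ribosomal, fatty acid oxidation, complement and slow fibre lists were among the 21. The interferon list had a median of 0.03, and the MHC list 0.05, once the libraries of week 8 were left out. The glucocorticoid list had -0.02 without the libraries of week 2 and about 0 without those of week 8.

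**Figure D2:**
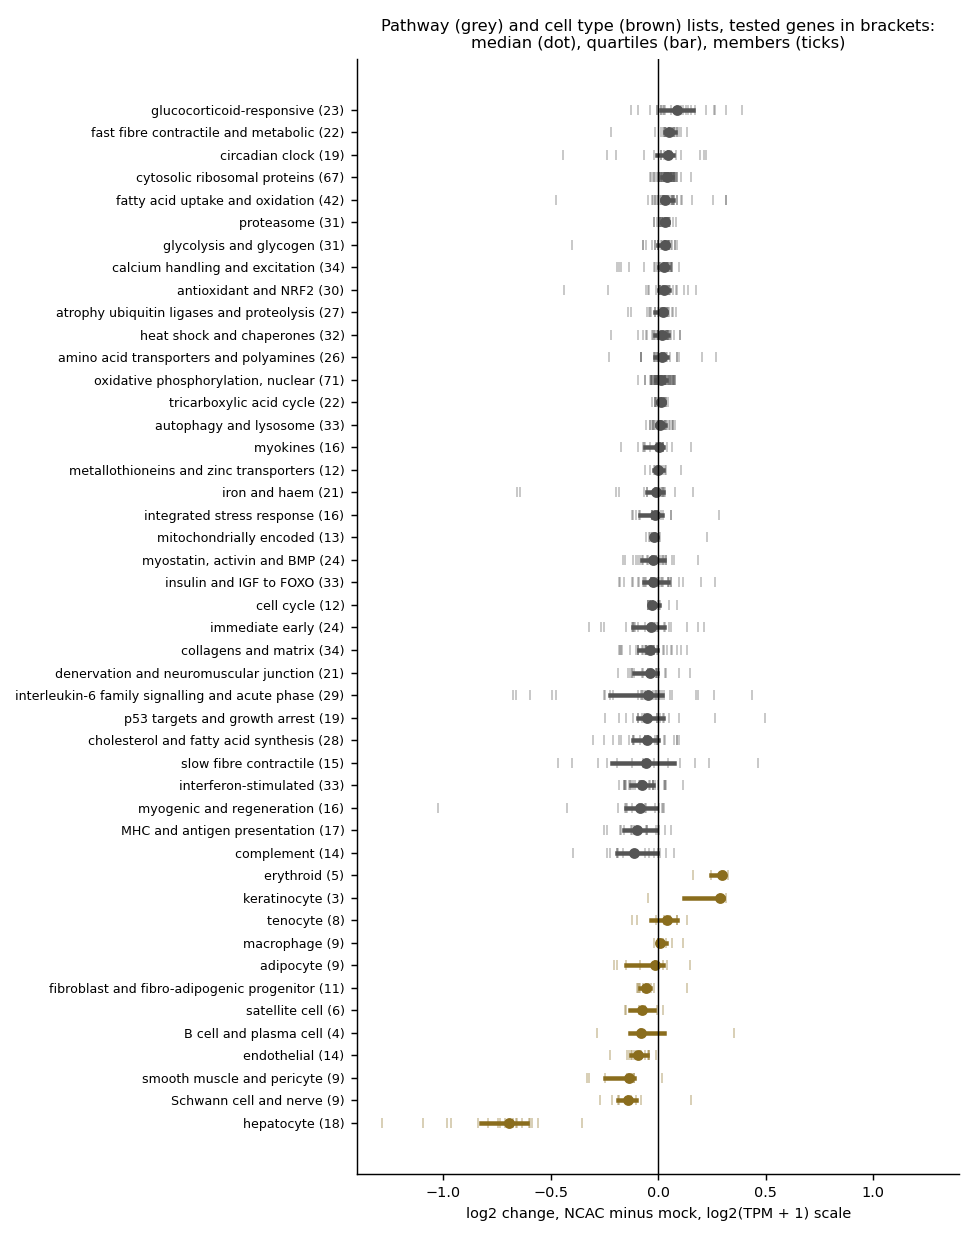
Log2 change of TPM + 1, NCAC minus mock (horizontal axis), for each pathway list and cell type list with at least 3 tested genes. The dot is the median of the members, the bar their quartiles and the ticks the single genes; every pathway median lies between -0.11 and 0.09. Most of the hepatocyte genes shown passed the filter only through mock libraries where they were high.

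Most of the larger differences were in genes whose mock mean rested on 3 libraries with liver transcripts. Alb, the serum albumin gene of hepatocytes, had 0, 0.179 and 10.5 TPM in the 20 NCAC libraries, against 0, 0.129 and 1196 TPM in the 20 mock libraries. Both medians lay below 1 TPM. Albumin stood above 100 TPM in 0 NCAC libraries and in 3 mock libraries: 1196 TPM in replicate 1 and 194 TPM in replicate 2 at 2 weeks, and 142 TPM in replicate 3 at 4 weeks. Replicates 4 and 5 of the mock group at 2 weeks held 51.7 and 16.1 TPM. Summed over 22 hepatocyte genes, the level ran over 4.22, 8.70 and 62.9 TPM in NCAC muscle, against 3.29, 9.65 and 3185 TPM in mock muscle. Of the 22 genes, 18 passed the filter, and all 18 had a mock mean more than 3 times that without the 3 libraries. Most of them passed only through the libraries where they were high, so the filter favoured a negative pooled change, and that sign is no support. By week the median of the 18 was -2.25, -0.70, 0.09 and 0.01 at 2, 4, 6 and 8 weeks. In the pooled comparison 0 of them were called. Serpina1c, which encodes an antitrypsin, had 0, 0.1005 and 0.757 TPM in NCAC muscle, against 0, 0.299 and 117 TPM in mock muscle (change -0.98, unadjusted p 0.00991).

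Of the 39 genes with a change below -0.5, 37 had a mock mean more than 3 times that of the mock libraries without the 3 above 100 TPM of Alb. Without those 3 libraries 0 of 10793 genes were called, 177 stood at an unadjusted p under 0.05, and 5 hepatocyte genes passed the filter. Alb, whose level chose the libraries to leave out, then had a change of -0.29, a value that this choice helped to set. Hepatocyte genes also stand in 2 of the pathway lists: Fga, Fgb and Fgg, the fibrinogen chains, among interleukin-6 and acute phase genes, and Trf, transferrin, among iron genes. Without those libraries the 3 fibrinogen genes were below the filter, and the interleukin-6 and acute phase list had a median of -0.0019, against -0.05 with them. The complement list had -0.02 without them, against -0.11 with them. How liver RNA came into these libraries was not tested.

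**Figure D3:**
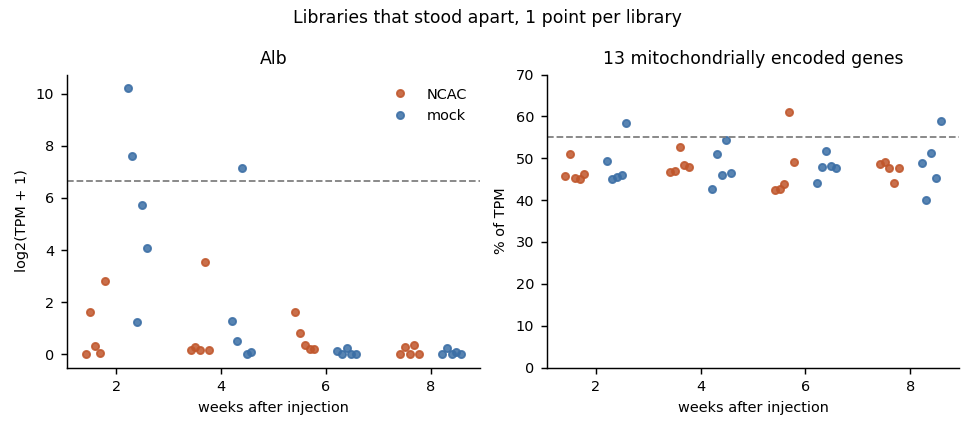
Left, log2 of Alb TPM + 1 in each library by weeks after injection, with a dashed line at 100 TPM; right, the percentage of each library's TPM from the 13 mitochondrially encoded genes, with a dashed line at 55%. NCAC libraries are drawn left of mock libraries; 3 mock libraries and no NCAC library lie above the albumin line, and 1 NCAC and 2 mock libraries above 55%.

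Mitochondrially encoded genes took 47.6 ± 4.11% of TPM in NCAC muscle and 48.4 ± 4.81% in mock muscle (SD, n = 20 each; permutation test within weeks, two-sided p 0.601). The share ran from 39.9% to 61.1%, and 3 libraries lay above 55%: NCAC at 6 weeks replicate 4, mock at 2 weeks replicate 5 and mock at 8 weeks replicate 5. TPM keeps no sequencing depth, so the depth of each library is unknown. Other cell types were read through their markers. Among 17 T and NK cell markers 0 passed the filter, and their sum was 0.174 to 2.20 TPM in NCAC muscle, against 0.303 to 8.65 TPM in mock muscle. Of 10 melanocyte markers only Mitf, which muscle also expresses, was tested (change 0.02), and the list summed to at most 7.21 TPM in NCAC muscle and 8.01 TPM in mock muscle. Keratinocyte markers summed to 253 TPM in NCAC at 6 weeks replicate 5 and to at most 4.92 TPM in every other NCAC or mock library. In CAC muscle they summed to at most 5.69 TPM. Macrophage markers summed to 33.0, 59.2 and 116 TPM in NCAC muscle, against 32.3, 53.4 and 115 TPM in mock muscle, with 0 of 9 tested genes called. At 2 weeks their sums did not overlap, at 60.0 to 116 TPM in NCAC muscle, against 32.3 to 57.2 TPM in mock muscle.

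Several lists of cell type markers had most members on 1 side, without a call. Of 9 tested Schwann cell and nerve genes, 8 had a negative change (median -0.14), as had 10 of 11 fibroblast genes (median -0.06) and 5 of 6 satellite cell genes (median -0.07). All 5 tested erythroid genes had a positive change (median 0.30). These sides were not all kept week by week. At 2, 4, 6 and 8 weeks the erythroid median was -0.21, 0.22, 0.63 and 0.36. The fibroblast median was 0.23, -0.17, -0.22 and -0.19 at those weeks, and ran from -0.10 to 0.01 with 1 library left out. The Schwann cell and nerve median was 0.04 at 2 weeks. The satellite cell median was -0.07, -0.09, -0.11 and -0.04. Markers of blood vessels were mostly on the negative side in the pooled comparison. Of 14 endothelial genes, 0 were called, 14 had a negative change, and the median was -0.09; 13 of the 14 stayed negative on rescaled TPM. Kdr, the main receptor of vascular endothelial growth factor, had 6.70, 13.7 and 18.8 TPM in NCAC muscle, against 9.47, 16.8 and 22.7 TPM in mock muscle. Of 9 tested genes of smooth muscle and pericytes, 8 had a negative change (median -0.14), and 3 stood at an unadjusted p under 0.05. Myh11, the smooth muscle myosin, had 2.60, 10.5 and 16.1 TPM in NCAC muscle, against 6.32, 12.5 and 18.5 TPM in mock muscle (change -0.33, unadjusted p 0.00826, lower than the mock mean of its week in 15 of 20 NCAC libraries). Acta2, smooth muscle actin, had 15.7, 32.8 and 51.9 TPM in NCAC muscle, against 12.9, 40.2 and 53.1 TPM in mock muscle (change -0.32). The groups overlapped for both. In bulk RNA, fewer cells of a type and less RNA per cell cannot be told apart.

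The medians of the vessel lists were nearer 0 without 1 library. Without NCAC at 6 weeks replicate 4, the library with the highest mitochondrial share, the smooth muscle median was -0.06 and the endothelial median -0.05. By week, the smooth muscle median was -0.04 at 2 weeks, -0.27 at 4 weeks, -0.33 at 6 weeks and 0.01 at 8 weeks. The endothelial median was -0.01, -0.21, -0.13 and -0.02 at the same weeks. All 9 tested smooth muscle genes were lower at 4 and at 6 weeks, when most genes of any kind were lower too. Among all 10848 genes, 3304 had a positive change at 4 weeks and 3852 at 6 weeks, with a median of -0.04 at both. Whether the lists differed between weeks was not tested; the interaction had an unadjusted p of 0.361 for Myh11 and 0.304 for Acta2.

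The gene with the smallest p of all was Olfr558, an olfactory receptor gene whose human counterpart OR51E1 is also expressed outside the nose. It had 1.05, 1.74 and 2.85 TPM in NCAC muscle, against 1.65, 2.24 and 3.23 TPM in mock muscle. Its change was -0.23 (interval -0.34 to -0.12, adjusted p 1.00 in limma), and 18 of 20 NCAC libraries lay below the mock mean of their week. Olfr78, a receptor of short-chain fatty acids in arterial smooth muscle, had 0.777, 1.88 and 2.91 TPM in NCAC muscle, against 1.41, 2.64 and 3.61 TPM in mock muscle (change -0.31). Gucy1a3, a subunit of the nitric oxide receptor guanylate cyclase, had 0.746, 2.38 and 3.09 TPM in NCAC muscle, against 2.29, 3.02 and 3.96 TPM in mock muscle (change -0.25). Gja5, the arterial gap junction protein connexin 40, had 0.590, 0.955 and 1.38 TPM in NCAC muscle, against 0.650, 1.27 and 1.66 TPM in mock muscle (change -0.18). These 4 genes were named after their values were seen, their levels are low, and the groups overlapped for each. For Gucy1a3 and Gja5, 19 of 20 NCAC libraries lay below the mock mean of their week.

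With no gene called, the genes named are those of smallest p whose higher group averaged 5 TPM or more, predicted genes and pseudogenes aside. The 10 on the lower side were Zfp36l2, Cfap20, Cald1, Atp2a2, Hnrnph3, Scand1, Myh11, Acta2, Ushbp1 and Serpina1c, none of them called. Zfp36l2, which binds AU-rich elements of messenger RNAs and speeds their decay, had 4.09, 6.69 and 7.87 TPM in NCAC muscle, against 5.49, 7.76 and 10.8 TPM in mock muscle (change -0.23, unadjusted p 0.00278). In CAC muscle it had 7.49, 16.5 and 27.1 TPM. Cald1, the actin-binding protein caldesmon, had 2.43, 6.59 and 7.77 TPM in NCAC muscle, against 5.31, 7.15 and 10.02 TPM in mock muscle. Scand1, a small SCAN domain protein, had 3.97, 15.8 and 24.0 TPM in NCAC muscle, against 10.6, 19.2 and 33.7 TPM in mock muscle. The other changes were small: Cfap20 -0.19, Hnrnph3 -0.13 and Ushbp1 -0.21. Every one of these genes overlapped between the groups. The change of each of the 10 kept its sign in every alternative in which it was tested. They were picked by smallest p in the same libraries, so a kept sign is no separate support. Serpina1c was below the filter, and so untested, without the 3 mock libraries above 100 TPM of Alb.

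The genes of the higher side included Rnaset2b, Rps27rt, Rsph3b, Hist2h2aa2, Cwc22, Rsph3a, Eif2b4, Plin5 and Tagap1, none of them called. Eif2b4, a subunit of the exchange factor for translation initiation factor eIF2, had 26.2, 31.6 and 37.5 TPM in NCAC muscle, against 24.5, 29.9 and 36.1 TPM in mock muscle. Its change of 0.11 was small, and 17 of 20 NCAC libraries lay above the mock mean of their week. Of the other genes on this side, Cwc22 and Rsph3a took separate levels in different libraries.

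Cwc22, a splicing factor that places the exon junction complex, had the wider gap between its levels. It lies on chromosome 2, chr2:77881159-77946375 on the minus strand of GRCm38 (mm10). Its level was 27.6 to 80.9 TPM in 8 of 20 NCAC libraries and 2.28 to 3.23 TPM in the other 12. In mock muscle it was 59.1 TPM in 1 of 20 libraries, replicate 1 at 8 weeks, and 2.18 to 3.53 TPM in the other 19. In CAC muscle 5 of 22 libraries stood at 41.9 to 96.8 TPM. No library of the 40 held a level between 3.53 and 27.6 TPM. The mean was 21.9 ± 27.7 TPM in NCAC muscle and 5.59 ± 12.6 TPM in mock muscle (SD, n = 20 each), so the log2 change of 1.27 (unadjusted p 0.00651, adjusted p 1.00 in limma) describes a count of libraries and not a common shift. At 2 weeks the high level was in 1 of 5 NCAC libraries, at 77.9 TPM.

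The same 8 NCAC, 1 mock and 5 CAC libraries held a second group of transcripts. Predicted genes Gm13691, Gm13693, Gm13694, Gm13696, Gm13697 and Gm13698 lie side by side on the same chromosome, from 83955693 to 83993045. They had 3.04 to 12.6 TPM where Cwc22 was high and at most 0.0208 TPM in every other library. These 6 were looked at after their values were seen. Reads of near-identical copies can be split between them in a way these values do not show, so the level of each single copy is uncertain.

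A stretch of chromosome 17 held 4 of the 10 genes of the higher side. Rsph3b and Rsph3a, which encode radial spoke proteins of cilia, lie at 6904413 to 6948682 and at 7945614 to 7979824. Tagap1 and Rnaset2b lie near the first, and Tagap near the second. Rsph3a had at least 10.6 TPM in 19 of 20 NCAC libraries and 4.09 TPM in the other, replicate 4 at 8 weeks. In mock muscle 10 of 20 libraries had 13.6 to 29.5 TPM and 10 had 3.15 to 6.66 TPM. Rsph3b ran over 23.9, 49.7 and 78.0 TPM in NCAC muscle, against 19.3, 40.5 and 76.6 TPM in mock muscle. In the 40 libraries the 11 with Rsph3a below 10 TPM were also the 11 with the lowest Rsph3b. Rnaset2b, a secreted ribonuclease, had 31.8, 48.9 and 56.8 TPM in NCAC muscle, against 29.7, 38.9 and 55.3 TPM in mock muscle (change 0.22, unadjusted p 0.0033). Tagap, named after its values were seen, had 1.72, 3.01 and 4.06 TPM in NCAC muscle, against 1.45, 2.18 and 4.27 TPM in mock muscle. These genes come as near-identical pairs in the mouse genome, so the split of reads between the copies of a pair is uncertain.

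Rps26, a protein of the small ribosomal subunit, took 3 levels together with the processed pseudogene Rps26-ps1. Where Rps26-ps1 was near 0, Rps26 had 308.9 TPM or more. In NCAC at 2 weeks replicate 5, Rps26 had 0.480 TPM and Rps26-ps1 476 TPM. In mock at 8 weeks replicate 3, they had 0.0939 and 444 TPM. Rps26-ps1 was at 212 TPM or more in 8 of 20 NCAC libraries and at 169 TPM or more in 4 of 20 mock libraries, and at most 0.435 TPM in the rest. In 10 of the 12 libraries with high Rps26-ps1, Rps26 had 141 to 202 TPM. Another processed pseudogene, Gm15501, whose parent gene was not established here, held 160 TPM in 1 NCAC library, and 97.5 and 163 TPM in 2 mock libraries. The library with 163 TPM was a mock library of 6 weeks, a group in which Rps26 had 349 TPM or more throughout. The pooled change was -0.14 for Rps26 and 1.58 for Rps26-ps1, with intervals of -1.26 to 0.99 and -0.64 to 3.81. Rps27rt, a retrocopy of Rps27, had 11.1, 42.8 and 89.2 TPM in NCAC muscle, against 10.9, 35.1 and 66.1 TPM in mock muscle (change 0.51). Reads of a gene and its near-identical copies cannot be told apart with certainty for Rps26, Rps26-ps1 or Rps27rt.

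**Figure D4:**
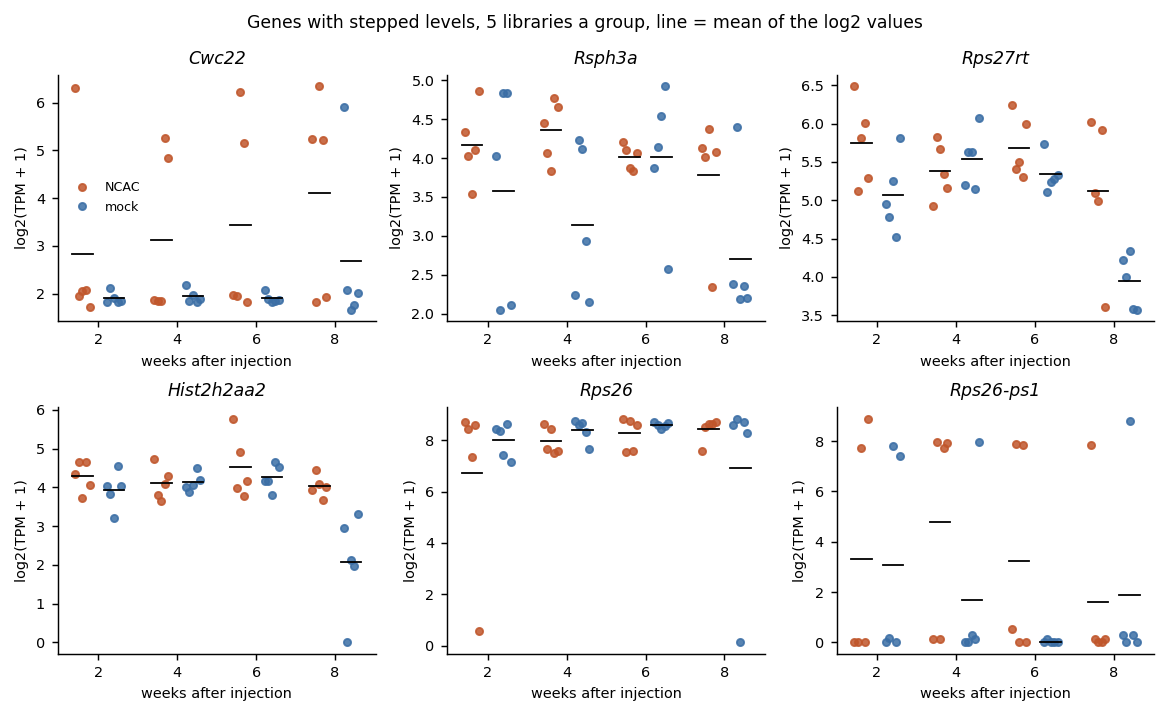
Log2 of TPM + 1 for Cwc22, Rsph3a, Rps27rt, Hist2h2aa2, Rps26 and Rps26-ps1 in each library by weeks after injection, with NCAC libraries left of mock libraries and the mean of the 5 log2 values as a line. Cwc22 stands high in 8 NCAC libraries and 1 mock library, Rsph3a stands low in 1 NCAC and 10 mock libraries, and Hist2h2aa2 is lower in mock muscle at 8 weeks.

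Whether the difference depended on the week was tested with the 3 terms of treatment by week. Of 10848 genes, 0 (0%) were called by limma, and 240 stood at an unadjusted p under 0.05. The smallest p was that of Arrdc3, an arrestin-domain protein that dampens beta-adrenergic receptor signalling (0.000897, adjusted p 1.00). Arrdc3 averaged 26.8 ± 4.72 TPM in NCAC muscle and 13.3 ± 2.44 TPM in mock muscle at 2 weeks (SD, n = 5 each), without overlap. At 6 weeks it averaged 14.4 ± 2.19 TPM in NCAC muscle and 20.3 ± 4.81 TPM in mock muscle. The weekly log2 changes were 0.97, -0.35, -0.45 and 0.57 at 2, 4, 6 and 8 weeks. Arrdc3 was named after its values were seen.

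Week by week the count of called genes was also 0 in limma: 0 of 10848 (0%) at 2 weeks, with 392 at an unadjusted p under 0.05, 222 higher and 170 lower. At 4 weeks it was 0 (0%) with 189 at that p, at 6 weeks 0 (0%) with 184, and at 8 weeks 0 (0%) with 213. With 5 against 5 libraries the median SE was 0.127, and 88.2% to 90.2% of the intervals stayed inside 1.5-fold. The smallest adjusted p at 2 weeks, 0.118, belonged to Apoa2, an apolipoprotein of the liver, with a mean of 1.07 ± 1.38 TPM in NCAC muscle and 98.1 ± 173 TPM in mock muscle (SD, n = 5 each). At 6 weeks the smallest p was that of Nhej1, a factor of DNA end joining, at 5.46 ± 1.11 TPM in NCAC muscle and 3.72 ± 0.374 TPM in mock muscle (SD, n = 5 each).

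At 8 weeks the smallest adjusted p, 0.0711, belonged to the histone gene Hist2h2aa2. It had 14.2, 20.6, 15.9, 11.9 and 15.05 TPM in NCAC muscle, against 6.74, 0, 3.34, 2.89 and 8.87 TPM in mock muscle. The groups did not overlap at 8 weeks and did at 2, 4 and 6 weeks. Of the 5 mock libraries of 8 weeks, 4 lay below every other library of the 40, the next lowest being mock at 2 weeks replicate 3 with 8.25 TPM. The gene has a near-identical copy, so its own level is uncertain. Hist2h2aa2 was called at 8 weeks with all 62 libraries in the fit, without the 3 libraries above 55% mitochondrial, and without any 1 of NCAC at 6 weeks replicate 1, mock at 8 weeks replicate 1 and mock at 8 weeks replicate 5. Rps27rt averaged 39.7 ± 21.8 TPM in NCAC muscle and 14.7 ± 3.81 TPM in mock muscle at 8 weeks (SD, n = 5 each), with overlap. Rsph3a stood low in 4 of the 5 mock libraries of 8 weeks and in 1 of the 5 NCAC libraries.

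Some gene lists had medians that changed with the week. Genes of MHC and antigen presentation had medians of 0.09, 0.04, 0.08 and -0.76 at 2, 4, 6 and 8 weeks, and 17 of 17 were lower in NCAC muscle at 8 weeks. Interferon-stimulated genes had medians of 0.02, 0.10, -0.02 and -0.38, and 32 of 33 were lower at 8 weeks. The median of all genes was 0.02, -0.04, -0.04 and 0.03 at 2, 4, 6 and 8 weeks. Genes with a positive change numbered 6320, 3304, 3852 and 6668 of 10848 at those weeks. B2m, the light chain of MHC class I, had 116, 132 and 194 TPM (lowest, median and highest of 5) in NCAC muscle at 8 weeks, against 175, 212 and 357 TPM in mock muscle. H2-K1, a class I heavy chain, had 19.2, 25.4 and 40.2 TPM in NCAC muscle, against 36.2, 41.1 and 89.0 TPM in mock muscle. Cd74, the invariant chain of MHC class II, had 12.5, 17.1 and 30.2 TPM in NCAC muscle, against 20.7, 26.0 and 97.3 TPM in mock muscle. The groups overlapped for each of the 3 genes.

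Replicates 1 and 2 of the mock group at 8 weeks were the highest of the 40 libraries for these lists. The MHC list summed to 745 and 834 TPM in them, the interferon list to 276 and 366 TPM, and the T and NK cell markers to 3.55 and 8.65 TPM. Leaving out these 2 libraries was chosen after the data were seen. Without them the median at 8 weeks was -0.29 for the MHC list, with 17 of 17 still lower, and -0.07 for the interferon list, with 23 of 33 lower. The part of the T and NK cell markers in these results was not tested.

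Glucocorticoid-responsive genes turned with the week as well. Their medians were 0.37, -0.12, -0.23 and 0.30 at 2, 4, 6 and 8 weeks, and 21 of 23 were higher in NCAC muscle at 2 weeks but 3 of 23 at 6 weeks. Among all 10848 genes, 6320 were higher at 2 weeks and 3852 at 6 weeks. Zbtb16, a transcriptional repressor that glucocorticoids induce, had the largest positive pooled change of the list, 0.39 (interval -0.04 to 0.82). It had 10.1, 23.2 and 56.3 TPM in NCAC muscle, against 8.30, 17.3 and 41.3 TPM in mock muscle. Immediate early genes had medians of 0.27, -0.05, -0.33 and -0.06 at the same weeks, and tenocyte genes 0.60, -0.58, 0.37 and -0.40. Macrophage genes had medians of 0.46, -0.15, 0.10 and -0.27, with 9 of 9 higher in NCAC muscle at 2 weeks and 1 of 9 at 8 weeks. No single gene of these lists was called in any week, and the turn of a list as a whole was not tested.

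Clock genes were read for the time of tissue collection, which the labels do not give. Arntl, which encodes the clock activator BMAL1, had 1.08, 2.54 and 4.68 TPM in NCAC muscle, against 1.47, 3.66 and 11.1 TPM in mock muscle. Its change was -0.44 (interval -0.79 to -0.10, unadjusted p 0.0137, adjusted p 1.00 in limma), and 19 of 20 NCAC libraries lay below the mock mean of their week. The highest mock library had 10.7 TPM at 2 weeks, 11.1 TPM at 4 weeks, 7.75 TPM at 6 weeks and 10.5 TPM at 8 weeks, each above every NCAC library. These libraries raised the mock means behind the count of 19. The 20 mock libraries had a mean of 4.59 TPM but a median of 3.66 TPM. Dbp, a clock output peaking opposite to Arntl, had 39.6, 74.7 and 118 TPM in NCAC muscle, against 42.4, 71.5 and 120 TPM in mock muscle (change 0.05). Per2, a repressor of the clock, had 3.10, 7.41 and 10.9 TPM in NCAC muscle, against 1.48, 6.77 and 10.7 TPM in mock muscle (change 0.21, interval -0.12 to 0.54). Of 19 tested clock genes, 0 were called and Arntl alone stood at an unadjusted p under 0.05.

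**Figure D5:**
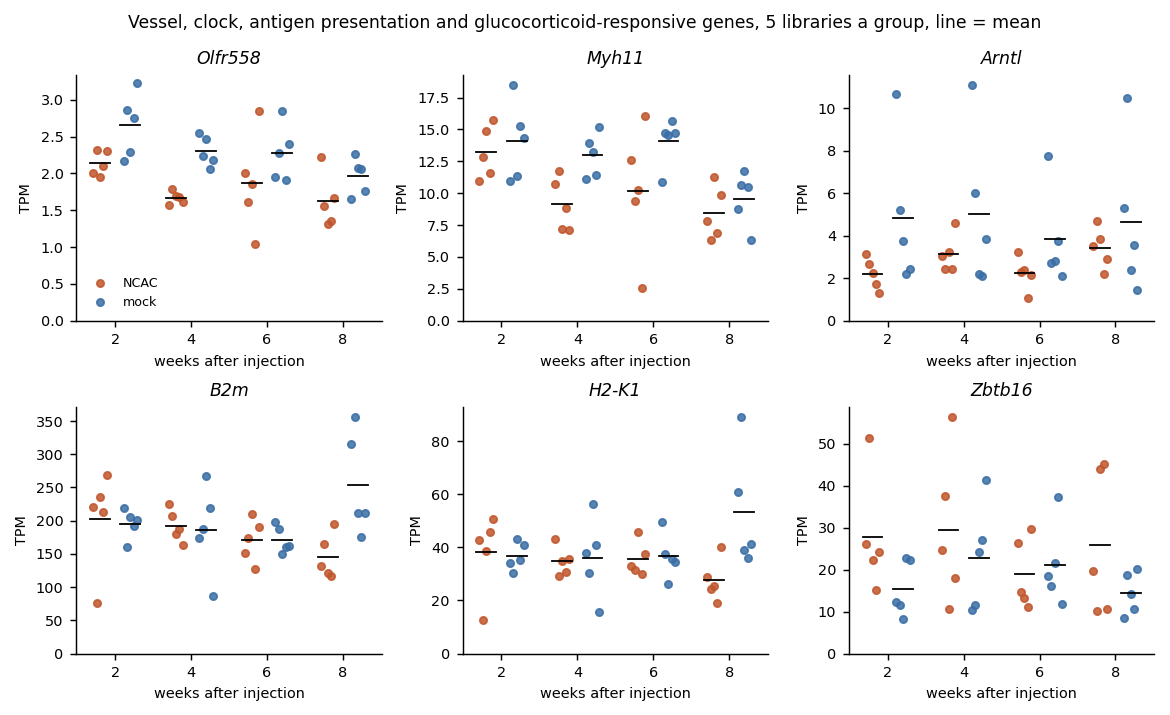
Level in TPM (vertical axes, from 0) of Olfr558, Myh11, Arntl, B2m, H2-K1 and Zbtb16 in each library by weeks after injection, with NCAC libraries left of mock libraries and the mean of 5 libraries as a line. At 8 weeks 2 mock libraries reach 316 and 357 TPM of B2m, above all NCAC libraries, and at each week 1 mock library stands highest for Arntl.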

How the data were processed

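RNA of tibialis anterior muscle had been prepared with a TruSeq stranded mRNA kit and sequenced on an Illumina NovaSeq, per the labels' protocols. TPM for 47643 gene symbols came in a table that the authors deposited, and values were used unchanged. Per the submitters' processing notes the genome build was mm10; aligner, counter and annotation: not given in the sources used here. TPM keeps no read depth, so no counting interval was set. TPM was transformed to log2(TPM + 1), and 10848 genes with a mean over the 40 libraries of 1 TPM or higher were tested. limma in R 4.3.3 was fitted with treatment and week, with a trend in the prior variance and Benjamini-Hochberg adjustment over all tested genes; the call threshold was an adjusted p of 0.05. Weekly contrasts and the 3 interaction terms came from a fit of the 8 groups with 1 shared spread. The p-values measure the spread between libraries labelled as biological replicates. The fit was tested on simulated data. Gene lists, panel genes and the members were chosen with earlier results of these data known. The genes named by rule were the called ones, and, since there were none, up to 10 in each direction by smallest p whose higher group averaged 5 TPM or more, leaving out predicted genes and pseudogenes; 1 of the genes so named is not reported here. Panel genes were named whatever their result. Gene positions came from the annotation of the same build. Alternatives changed the pseudocount to 0.1, dropped the filter, rescaled TPM by size factors, left out libraries above 100 TPM of Alb, above 55% mitochondrial TPM, single libraries or single weeks, dropped the week term, weighted libraries, added the CAC libraries, or blocked by replicate number. Figures were drawn with Python 3.11.15 and matplotlib 3.10.9.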

Additional observations from a re-analysis of the deposited data

Results flagged for a closer look

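Of 414 groups of 5 libraries examined for 52 genes, 57 (13.8%) held 1 library far from the other 4. Chance flags about 1 group in 20 of normal values, but some of these genes were picked for stepped or outlying levels and TPM is skewed, so the share is not read against that rate. Genes with near-identical copies, and the pseudogene Gm15501, were frequent among them, in TPM. Cwc22 had 77.9 in NCAC at 2 weeks replicate 1, and in mock muscle 59.1 at 8 weeks replicate 1, 3.32 at 2 weeks replicate 2 and 3.25 at 6 weeks replicate 1. Gm13693 had 9.25 in the same NCAC library, 6.72 in mock at 8 weeks replicate 1 and 0.0184 in mock at 6 weeks replicate 1. Rsph3a had 4.09 and Rsph3b 23.9 in NCAC at 8 weeks replicate 4, each the lowest of its group. Mock at 8 weeks replicate 2 was the highest of its group for Rsph3a with 20 TPM, Rsph3b with 54.3 and Tagap1 with 6.36. Rps26 had 0.480 in NCAC at 2 weeks replicate 5, 193 in NCAC at 8 weeks replicate 1 and 0.0939 in mock at 8 weeks replicate 3. Rps26-ps1 had 227 in NCAC at 8 weeks replicate 1, and in mock muscle 250 at 4 weeks replicate 5, 0.103 at 6 weeks replicate 2 and 444 at 8 weeks replicate 3. Gm15501 had 160 in NCAC at 2 weeks replicate 5, 97.5 in mock at 2 weeks replicate 5 and 163 in mock at 6 weeks replicate 2.

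NCAC at 6 weeks replicate 4, the library with the highest mitochondrial share, was the lowest of its group for 7 genes: Eif2b4 (26.2 TPM), Zfp36l2 (4.09), Cald1 (2.43), Atp2a2 (4.57), Ushbp1 (8.26), Ppargc1a (7.78) and Gucy1a3 (0.746). Without it the change of Cald1 was -0.14, of Atp2a2 -0.15, of Ushbp1 -0.18 and of Gucy1a3 -0.19, and none was called. Liver genes were flagged in 2 libraries of week 4. NCAC replicate 4 had 10.5 TPM of Alb, 0.757 of Serpina1c and 5.25 of Apoa2, and mock replicate 3 had 142, 15 and 47.7 TPM of the same genes. Apoa2 also had 0.0789 in mock at 6 weeks replicate 2 and 0.0837 in mock at 8 weeks replicate 4.

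Mock at 6 weeks replicate 1 stood apart for Plin5 (14.8 TPM), Myh11 (10.8), Cdkn1a (30.5) and Fst (2.41). NCAC at 8 weeks replicate 3 was the highest of its group for Mt2 (45.7 TPM), Cdkn1a (60) and Eif2b4 (37.5). Other single NCAC libraries were flagged for Plin5 (41.1 TPM at 6 weeks replicate 1), Cald1 (5.06 at 4 weeks replicate 4), Acta2 (51.9 at 2 weeks replicate 5), Ushbp1 (9.23 at 4 weeks replicate 2), Cdkn1a (12.3 at 6 weeks replicate 5) and Nhej1 (5.91 at 4 weeks replicate 4). Other single mock libraries were flagged for Eif2b4 (36.1 TPM at 4 weeks replicate 1), Cald1 (8.76 at 4 weeks replicate 2), Atp2a2 (12.6 at 8 weeks replicate 2), Acta2 (12.9 at 8 weeks replicate 5), Myh2 (186 at 2 weeks replicate 5), Gucy1a3 (2.85 at 8 weeks replicate 2) and Gja5 (0.650 at 4 weeks replicate 5).

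In 2 genes all 5 NCAC libraries lay on 1 side of the mock mean at 1 week and on the other side at another. Arrdc3 was higher in NCAC muscle at 2 weeks, by 0.964 as the log2 ratio of the group means + 1, and lower at 4 and at 6 weeks. At 4 weeks its ranges overlapped, at 10.8 to 22.7 TPM in NCAC muscle, against 11.3 to 55.6 TPM in mock muscle. The mock mean of 25.5 TPM at that week had an SD of 18.0 TPM. At 6 weeks the ranges overlapped as well. Alb was higher in NCAC muscle at 6 weeks, by 0.667 on that scale, and lower at 2 and at 4 weeks, where the mock libraries with high albumin lie. Its levels at 6 weeks were near 0, at 0.149 to 2.06 TPM in NCAC muscle, against 0 to 0.189 TPM in mock muscle, with overlap. The difference between those pairs of weeks was not tested on its own; over all 4 weeks the interaction had an unadjusted p of 0.000897 for Arrdc3 and 0.00336 for Alb, and limma's adjusted p was 1.00 for both.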

How the results depend on the processing

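The pooled, interaction and 4 week counts were 0 called genes in every alternative, but the smallest adjusted p of the pooled comparison in limma was 0.0528 with libraries weighted and 0.199 without the 3 mitochondrial libraries, against 1.00. For the pooled comparison the genes at an unadjusted p under 0.05 numbered from 177, without the mock libraries above 100 TPM of Alb, to 1143 with libraries weighted. Without a filter they were 747 of 22365, and without the 3 libraries above 55% mitochondrial, left out after seeing the data, 524. Rescaling moved the median of all genes to 0.0067, against -0.0049.

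At 2 weeks the count became 2 at a pseudocount of 0.1 and 33 with all 62 libraries. It ran from 0 to 49 with 1 library left out: 49 without mock at 2 weeks replicate 3, 22 without mock at 2 weeks replicate 5 and 25 without mock at 4 weeks replicate 3. Nearly all were lower in NCAC muscle and rested on the mock libraries with liver RNA: both at a pseudocount of 0.1, 32 of the 33, 42 of the 49, all 22 and all 25 had a mock mean over 3 times that without those libraries. At 6 weeks it became 6 with libraries weighted, all higher in NCAC muscle. At 8 weeks it became 1 with all 62 libraries and 1 without the 3 mitochondrial libraries, each time Hist2h2aa2, higher in NCAC muscle. With libraries weighted it became 1, the predicted gene Gm7293, lower in NCAC muscle (change -0.99). With 1 library left out it ran from 0 to 1. Hist2h2aa2 was called without NCAC at 6 weeks replicate 1, mock at 8 weeks replicate 1 or mock at 8 weeks replicate 5. Rps27rt, also higher in NCAC muscle, was called without NCAC at 8 weeks replicate 5. The cause of the calls at 6 and 8 weeks was not tested.

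Same-numbered libraries did not deviate together: over 20 pairs the correlation ran from -0.174 to 0.199, and 3 pairs had their own number as the best. With the replicate block 0 genes were called in any comparison, and 244 stood at an unadjusted p under 0.05 in the pooled one.

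Of 2751 values of single genes under the alternatives, 62 in 12 genes changed sign, most of them genes near 0. With TPM rescaled Mstn was at 0.0042 and Stat3 at 0.0015. Without libraries above 100 TPM of Alb, Rps26 was at 0.024. With libraries weighted Fbxo32 was at 0.072, Trim63 at 0.055, Mstn at 0.12, Mt2 at -0.014, Stat3 at 0.015 and Rps26 at 0.36. Without week 2, Mt2 was at -0.092, Socs3 at -0.043, Rps26 at 0.24 and Arrdc3 at -0.073. Without week 4, Mstn was at 0.057, Socs3 at -0.012, Stat3 at 0.011 and Cdkn1a at 0.022. Without week 6, Trim63 was at 0.11, Mstn at 0.061, Dbp at -0.045 and Nhej1 at -0.0010. Without week 8, Mt2 was at -0.076. Without the 3 mitochondrial libraries, Mstn was at 0.0018 and Mt2 at -0.018. With 1 library left out, Trim63 ran from -0.063 to 0.011, Mstn from -0.058 to 0.052, Mt2 from -0.11 to 0.15, Socs3 from -0.011 to 0.048, Stat3 from -0.038 to 0.018, Rps26 from -0.57 to 0.25 and Gm15501 from -0.68 to 0.017. Depth is unknown, and the low levels of Olfr558, Gja5 and Myh7 limit their precision.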
